A study of Mus musculus with 8 samples.

Results

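Genes that mark injury and repair of the kidney tubule were followed in mouse tubuloids, 3D epithelial structures that grow in Matrigel from fragments of renal tubules. The 10 genes were *Havcr1*, *Lcn2*, *Spp1*, *Vcam1*, *Sox9*, *Sox4*, *Cd44*, *Clu*, *Prom1* and *Cd24a*, taken by their symbols from the 24063 gene symbols of the deposited RNA-Seq tables. RNA was sequenced from 8 cultures, of which 4 received a 24 h pulse of GDNF (glial-derived neurotrophic factor, which drives branching of the ureteric bud) and 4 controls received the same growth factor medium without it. All were collected after 7 days in culture, and the comparison asks how these genes differ days after the pulse has ended. Kidneys of postnatal day 7 to 10, as the labels give it, were the source, while the study's text also names younger mice. Every culture, controls included, had the genotype *Pkd2*fl/fl *Pax8rtTA TetOCre* mTmG. The *Pax8* promoter drives the transactivator in renal epithelium, and Cre acts when doxycycline is added, which is not named for these cultures. The structures grown in this system include E-cadherin-negative globules beside epithelial spheroids and tubules. The number of mice behind the cultures is not stated, so p-values measure the spread between cultures, which may be partly technical. The study's text places 4 samples in each flow cell lane, without saying which cultures shared a lane, and the part of lane was not tested.

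After injury, surviving tubule cells lose their transport functions, switch on secreted and surface proteins that are used as injury markers, proliferate and then redifferentiate. *Havcr1* (KIM-1, a receptor for phosphatidylserine), *Lcn2* (NGAL, a siderophore-binding protein), *Spp1* (osteopontin) and *Clu* (clusterin, an extracellular chaperone) are classical markers of damaged tubules. Cells that fail to recover are known for *Vcam1*, *Sox9* and *Sox4* are transcription factors of developing and repairing tubules, and *Cd44*, *Prom1* (CD133) and *Cd24a* (CD24) are surface proteins found on immature or regenerating cells.

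All 10 genes were present in all cultures, and all 10 passed the filter on low counts. Levels are given in the authors' TPM (an abundance corrected for transcript length and for depth) of each gene's most counted transcript, which allows genes to be compared with each other. *Spp1* was the most abundant, with a mean of 14875 TPM over the 8 cultures and rank 2 among all 24063 genes. *Clu* followed at 1438 TPM (rank 45), *Lcn2* at 809 TPM (rank 124) and *Cd24a* at 392 TPM (rank 290). These 4 genes held the same order in 8 of 8 cultures. *Sox4* at 92.5 TPM was higher than *Prom1* at 49.9 TPM in 7 of 8 cultures, and *Prom1* was higher than *Sox9* at 23.6 TPM in 8 of 8. The lower end was less fixed, since *Sox9* was higher than *Cd44* (15.7 TPM) in only 5 of 8 cultures, and *Vcam1* (9.15 TPM) was higher than *Havcr1* (6.44 TPM) in 6 of 8. *Spp1* alone made up 5.07% to 10.6% of the TPM over all transcripts, although its 5 listed transcripts share reads. With only the most counted transcript of every gene, its share was 1.47% (GDNF culture 17) to 3.13% (control culture 7).

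Total transcript counts were 72991721 to 97490625 per culture. The cultures differed in their makeup. Summed TPM of 8 epithelial markers, led by *Krt18* (564 TPM on average), ranged from 480 in control culture 14 to 3720 in control culture 21, and from 1092 to 1578 in the GDNF cultures. Summed TPM of 7 fibroblast markers, led by *Col3a1* (186 TPM), ranged from 111 to 1030 in control cultures and from 134 to 856 in GDNF cultures. Of 10 markers of mature proximal tubule, 6 (*Lrp2*, *Cubn*, *Slc34a1*, *Slc22a6*, *Aqp1* and *Hnf4a*) were under 1 TPM in every culture, and the highest was *Slc5a2* (8.88 TPM). Macrophage markers, led by *Lyz2* (6.63 TPM), summed to 4.82 to 48.7 TPM with *Csf1r* under 1 TPM throughout, and the highest sum was in GDNF culture 17. Neutrophil markers, led by *S100a8* (4.44 TPM), summed to 2.46 to 16.9 TPM with *Ngp*, *Mpo* and *Elane* under 1 TPM throughout. Endothelial markers, led by *Plvap* (57.0 TPM), summed to 33.7 to 145 TPM with *Cdh5*, *Kdr* and *Tek* under 1 TPM throughout. In bulk RNA, fewer cells of a type and less RNA per cell cannot be told apart.

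After the GDNF pulse, none of the 10 genes passed the test at an adjusted p of 0.05. Summed counts were compared with edgeR's quasi-likelihood test over 16557 genes, in which 0 genes (0%) passed, with a smallest adjusted p of 0.167. DESeq2 called 1346 (14.7%) of the 9170 genes to which it gave an adjusted p and, again, 0 of the 10. At an unadjusted p of 0.05, edgeR placed 1 of the 10 genes, *Spp1*, among the 12.9% of all genes that were lower after GDNF and 0 of the 10 among the 9.25% that were higher. The log2 fold changes were positive for 6 of the 10 genes and negative for 4, with a median of 0.02 beside 0.03 over all genes tested. In CPM (counts relative to the depth of the culture, scaled by TMM to remove differences in composition), the groups overlapped for all 10 genes, whereas 13.2% of all genes had no overlap. TPM carries no such correction: over the 13569 tested genes whose mean reached 1 TPM, the median log2 ratio of GDNF over control was 0.39, and 78.5% of them were higher after GDNF. A higher mean TPM after the pulse was therefore the rule, seen for 8 of the 10 genes and 13042 of all 16557.

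**Figure D1:**
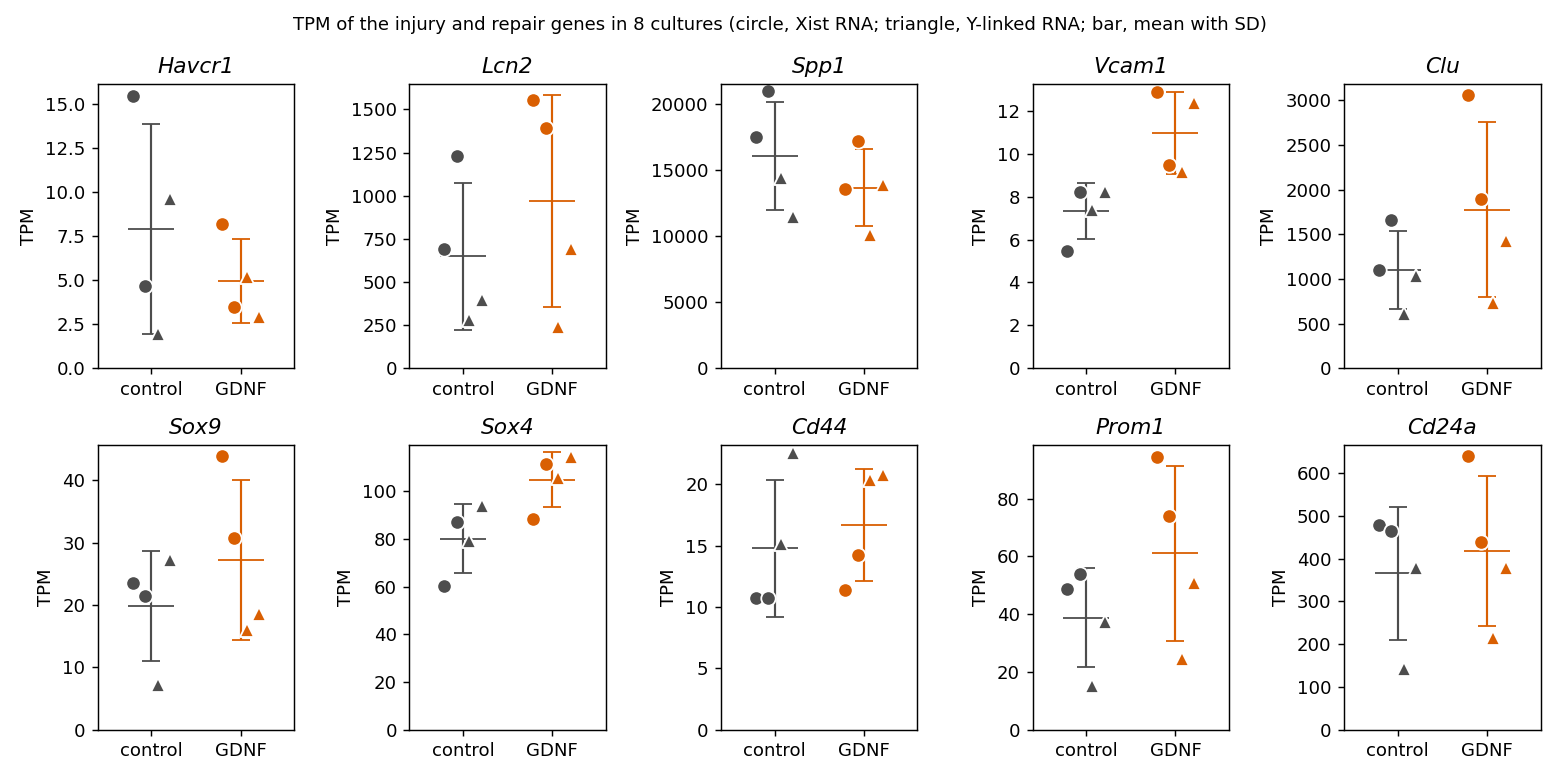
TPM of each gene (vertical axis, starting at 0, a scale for each gene) in 4 control and 4 GDNF cultures, with the mean and SD of each group. Circles are cultures with *Xist* RNA and triangles are cultures with Y-linked RNA. Only the *Vcam1* groups are apart, with controls up to 8.23 TPM and GDNF cultures from 9.14 TPM.

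**Figure D2:**
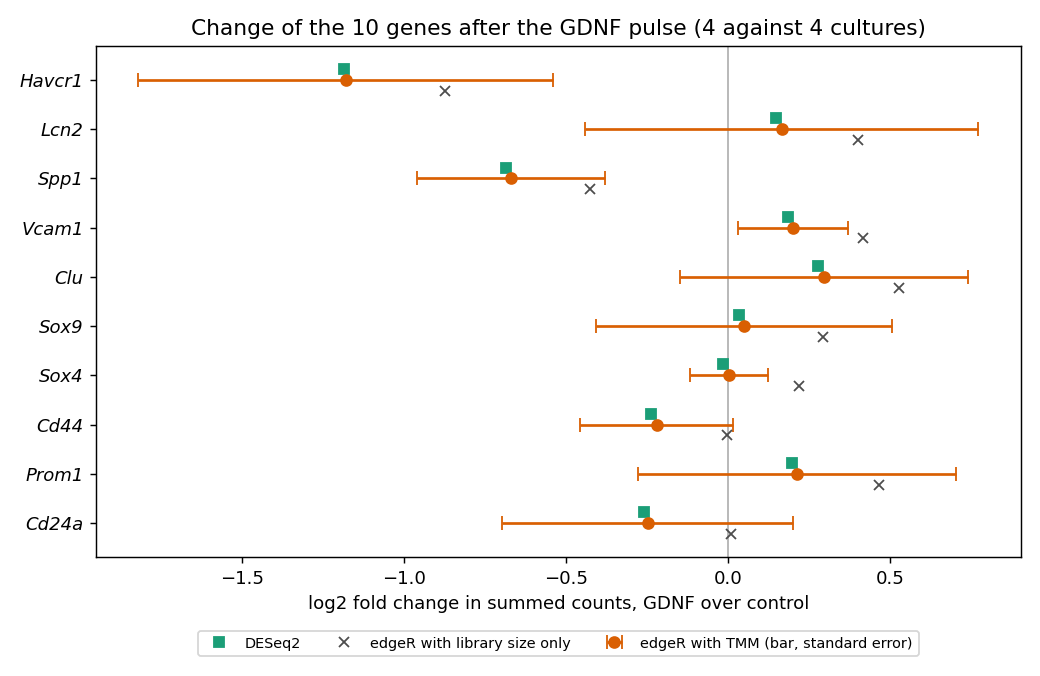
Log2 fold change of summed counts, GDNF over control (horizontal axis), for each gene by edgeR with TMM (circle, with its standard error), by DESeq2 (square) and by edgeR scaled to library size only (cross). Scaling to library size alone moves all 10 genes to the right, and its median over all genes is 0.25.

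Among the markers of damage, *Havcr1* had the largest estimated log2 fold change of the 10 on summed counts, and it did not pass the test. Its level was 15.5, 4.67, 1.92 and 9.62 TPM in control cultures 3, 7, 14 and 21, then 8.21, 3.48, 5.21 and 2.89 TPM in GDNF cultures 6, 12, 17 and 22. The highest and the lowest values were both in control cultures, an 8.07-fold range within 1 group. The means were 7.93 ± 5.97 TPM in controls and 4.95 ± 2.39 TPM after GDNF (SD, n = 4 each). On summed counts the log2 fold change was -1.18 (standard error 0.64, edgeR adjusted p = 0.296). It was -0.35 without control culture 3, and between -1.59 and -0.97 with any other culture left out. Control cultures 3 and 21, in which *Havcr1* was highest, were also those with the highest epithelial marker sums (2423 and 3720 TPM). The keratins *Krt8*, *Krt18* and *Krt19* led these sums. Of the markers that are not keratins, *Epcam* was at 180, 170 and 175 TPM in control cultures 3, 7 and 21. In the same order *Pax8* was at 61.9, 46.8 and 93.9 TPM, and *Cdh1* at 27.6, 23.2 and 57.5 TPM. *Cdh16* was at 44.3, 40.7 and 57.9 TPM, and *Pax2* at 1.69, 2.88 and 3.09 TPM. The part of keratin levels or of epithelial cells in the difference was not tested.

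*Lcn2* was at 689, 1231, 281 and 394 TPM in the control cultures in the same order, and at 1553, 1390, 239 and 694 TPM in the GDNF cultures. Each group thus held both low and high cultures, and the highest values were in GDNF cultures 6 and 12. Group means were 649 ± 425 and 969 ± 613 TPM (SD, n = 4), with an exact two-sided permutation p of 0.371. The log2 fold change on summed counts was 0.16 (standard error 0.61, edgeR adjusted p = 0.896). Leaving out control culture 14 or 21 or GDNF culture 6 or 12 turned its sign, with values down to -0.21.

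*Spp1* had the smallest p of the 10 on summed counts. Its levels were 17483, 20987, 14404 and 11442 TPM in the control cultures, and 13592, 17157, 10065 and 13874 TPM in the GDNF cultures. The groups overlapped broadly, with the 2 highest values in control cultures 7 and 3 and the lowest in GDNF culture 17, and the exact permutation p on TPM was 0.343. The log2 fold change was -0.67 (standard error 0.29) by edgeR, with an unadjusted p of 0.0440 and an adjusted p of 0.216. DESeq2 gave -0.68 with an adjusted p of 0.0655. Leaving out any culture kept the negative sign, between -0.89 and -0.48, and with library size only the unadjusted p was 0.103. The first of the RefSeq starts of *Spp1* (GRCm38.p6, plus strand) is preceded by the 250 bases at chr5:104434861-104435110, shown because the gene ranks so high in these cultures, with capitals for the matches to 8 short motifs that were searched in these windows:
Spp1: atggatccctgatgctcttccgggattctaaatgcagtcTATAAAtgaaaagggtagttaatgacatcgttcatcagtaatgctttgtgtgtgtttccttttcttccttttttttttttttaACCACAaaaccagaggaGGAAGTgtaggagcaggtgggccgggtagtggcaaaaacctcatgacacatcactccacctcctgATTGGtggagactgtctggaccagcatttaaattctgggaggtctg
In this window TATAAA began 211 bases before the start. ACCACA is the RUNX motif TGTGGT on the opposite strand, GGAAGT is an ETS motif, and ATTGG is the CCAAT box on the opposite strand, 46 bases before the start. Over all 32851 promoter windows of the same length, TATAAA was found in 12.4%, TGTGGT in 14.1%, GGAAGT in 19.7% and CCAAT in 33.9%, on either strand, so these matches describe the sequence and are no evidence of binding.

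*Vcam1*, an adhesion molecule that binds integrins on leukocytes, was low and steady within groups. Control cultures had 5.49, 8.23, 7.39 and 8.21 TPM, and GDNF cultures had 12.9, 9.50, 9.14 and 12.3 TPM. Every GDNF culture was thus higher than every control culture in TPM, at 10.97 ± 1.93 against 7.33 ± 1.29 TPM (SD, n = 4). The exact two-sided permutation p was 0.0286, the smallest that 70 assignments can give. It was 0.0286 with any one GDNF culture left out, and 0.0571 to 0.0857 with any one control culture left out. With a culture left out fewer assignments remain, so these p-values cannot be set directly against that of all cultures. The difference in means was 3.64 TPM with all cultures, 3.02 TPM without control culture 3, and 3.66 to 3.94 TPM without control culture 7, 14 or 21. By this test 20.6% of all genes were higher after GDNF, and the same 20.6% had no overlap between groups. *Vcam1* was only 0.19 above the median of all genes on the log2 scale of TPM. After composition was removed the groups overlapped, at 15.6 to 17.4 CPM in controls and 15.5 to 23.5 CPM after GDNF (exact permutation p = 0.314). The log2 fold change on counts was 0.20 (standard error 0.17, edgeR adjusted p = 0.496).

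*Clu* was at 1099, 1661, 606 and 1032 TPM in the control cultures and at 3062, 1889, 730 and 1423 TPM in the GDNF cultures. GDNF culture 6 was far above the rest, while GDNF culture 17 was below 3 of the 4 controls. Means were 1100 ± 433 and 1776 ± 981 TPM (SD, n = 4), with an exact permutation p of 0.286. On counts its log2 fold change was 0.29 (standard error 0.45, edgeR adjusted p = 0.720), and -0.16 without GDNF culture 6.

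The transcription factors *Sox9* and *Sox4* differed sharply in how steady they were. *Sox9* was at 23.6, 21.4, 7.12 and 27.2 TPM in the control cultures and at 43.8, 30.7, 16.0 and 18.5 TPM in the GDNF cultures. GDNF cultures 6 and 12 were above all controls, and GDNF cultures 17 and 22 were within their range. On counts it differed by 0.047 on the log2 scale (standard error 0.46, edgeR adjusted p = 0.963), and its sign turned when cultures were left out, from -0.33 to 0.31. *Sox4* was at 60.4, 87.2, 79.2 and 93.8 TPM in the control cultures and at 88.2, 111, 106 and 114 TPM in the GDNF cultures. Of the GDNF cultures, 3 were above all controls, and the exact permutation p was 0.0571. Relative to the median shift of all genes in TPM, however, the difference of *Sox4* was -0.0049 on the log2 scale. In CPM it was almost constant, at 145 to 160 in control cultures and 139 to 165 in GDNF cultures. Its log2 fold change was 0.0018, with a standard error of 0.12. With library size only it was 0.22, beside a median over all genes of 0.25.

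Of the surface proteins, *Cd44*, the receptor for hyaluronan and also a ligand-binding partner of osteopontin, was at 10.8, 10.7, 15.1 and 22.5 TPM in the control cultures and at 11.4, 14.3, 20.3 and 20.8 TPM in the GDNF cultures. The groups covered the same range. Its log2 fold change on counts was -0.22 (standard error 0.23, edgeR adjusted p = 0.599), although the mean TPM was higher after GDNF by 1.91 (exact permutation p = 0.686). *Prom1*, a pentaspan protein of membrane protrusions, was at 48.8, 54.0, 15.1 and 37.4 TPM in the control cultures and at 94.6, 74.1, 24.5 and 50.9 TPM in the GDNF cultures. GDNF cultures 6 and 12 were above all controls and GDNF culture 17 below 3 of the 4. The log2 fold change on counts was 0.21 (standard error 0.49, edgeR adjusted p = 0.824). *Cd24a*, a small glycosyl-phosphatidylinositol-anchored protein, was at 478, 465, 142 and 379 TPM in the control cultures and at 641, 439, 214 and 378 TPM in the GDNF cultures. The values of the groups interleaved. Its log2 fold change on counts was -0.25 (standard error 0.45, edgeR adjusted p = 0.769), and it was 0.0096 when scaled to library size only.

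Most of these genes differed widely between cultures of the same group. The within-group SD of log2 CPM had a median of 0.81 over the 10 genes and 0.34 over all genes tested. It was also high over the markers of epithelium (0.87) and fibroblasts (1.19) and over the injury and inflammation list (0.64), so a wide spread was not particular to the 10. *Havcr1* and *Lcn2* (both 1.16) lay at the 92nd percentile of all genes tested. *Prom1* (0.92), *Sox9* (0.86), *Cd24a* (0.83) and *Clu* (0.80) lay between the 83rd and the 87th. *Spp1* (0.44) and *Cd44* (0.38) were nearer the middle. *Vcam1* (0.20) was at the 17th percentile and *Sox4* (0.088) was among the steadiest genes, at percentile 0.68.

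Of the 6 most variable genes, 5 were high and low in the same cultures. *Lcn2*, *Clu*, *Prom1*, *Cd24a* and *Sox9* all had their highest TPM in GDNF culture 6, and all 5 had their lowest 2 values in control culture 14 and GDNF culture 17. These last cultures had the lowest epithelial sums (480 and 1092 TPM) and the highest fibroblast sums (1030 and 856 TPM). GDNF culture 6 had a low fibroblast sum (134 TPM) and an epithelial sum of 1578 TPM, which was lower than in control cultures 3 and 21. In control cultures 3 and 21 the sums were led by keratins, with *Krt18* at 895 and 1502 TPM. *Krt18* was at 488 TPM in GDNF culture 6, where *Epcam* (199 TPM), *Cdh16* (120 TPM), *Pax8* (110 TPM) and *Pax2* (7.42 TPM) had their highest values. *Cdh1* was highest in control culture 21 (57.5 TPM). *Havcr1* had another order than the 5 genes, with its highest values in control cultures 3 and 21 and its lowest in control culture 14 and GDNF culture 22. The part of cell makeup in these levels was not tested.

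Of these 5 genes, *Lcn2* and *Prom1* had RefSeq promoter windows, and that of *Prom1* is shown because it carried matches to the motifs searched. The 250 bases before one of its starts lie at chr5:44101737-44101986 (GRCm38.p6, minus strand), inside the span of the gene, whose annotation reaches to position 44102047:
Prom1: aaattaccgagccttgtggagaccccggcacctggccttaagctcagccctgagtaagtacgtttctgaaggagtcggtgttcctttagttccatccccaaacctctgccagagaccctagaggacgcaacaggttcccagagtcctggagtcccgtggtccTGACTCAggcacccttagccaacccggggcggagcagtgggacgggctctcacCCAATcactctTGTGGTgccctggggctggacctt
TGACTCA, 88 bases before the start, matches the AP-1 motif TGANTCA, which 6.75% of all windows hold. CCAAT and TGTGGT lie 35 and 24 bases before the start. A second *Prom1* window, at chr5:44094769-44095018, held an AP-1 match (TGAATCA, 189 bases before its start) and the ETS motif on the opposite strand. The window of *Lcn2*, at chr2:32387740-32387989 on the minus strand, held none of the 8 motifs, which besides those named were GGAATG (TEAD, in 12.6% of all windows), ACAATG (SOX, 10.7%) and CACGTG (E-box, 6.02%).

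The cultures also fell into 2 kinds by their sex-linked RNA. *Xist*, which silences an X chromosome in female cells, was read at 26.0 to 144 TPM in 4 of them (controls 3 and 7, GDNF 6 and 12). The other 4 had 116 to 194 TPM of Y-linked RNA, and both kinds were split evenly between the groups. Of the cultures with *Xist*, control 3 also held 1.50 TPM of Y-linked RNA and GDNF 6 held 6.46 TPM. *Lcn2* was higher in the cultures with *Xist*, at 504 to 709 CPM, than in those with Y-linked RNA, at 102 to 280 CPM. The log2 difference, with the pulse in the same fit, was 1.76 (standard error 0.29, edgeR adjusted p = 0.0408), and *Lcn2* was 1 of 68 genes (0.411%) called in this comparison. Of the 68, 66 were found in RefSeq and 7 of those lie on the X or Y chromosome. The call rested on 7 of the 8 cultures: with 1 left out the log2 difference was 1.53 to 2.11, and the adjusted p was 0.0360 without GDNF culture 22 and between 0.0594 and 0.160 without any of the others. Without the 2 cultures that held both RNAs, it was 1.79 with an adjusted p of 0.383. This comparison was chosen after the data were seen, and the sex-linked RNA and whatever else distinguished the source of these cultures cannot be told apart.

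By DESeq2 this difference of *Lcn2* was 1.74 (adjusted p = 3.65e-07), and that tool called 571 genes (3.45%) and 5 of the 10, *Lcn2*, *Clu*, *Prom1*, *Cd24a* and *Spp1*. By edgeR *Lcn2* was the only one of the 10 past the adjusted threshold. The log2 difference between the kinds, *Xist* over Y-linked, was 1.27 for *Prom1* (standard error 0.30, edgeR adjusted p = 0.134), 1.17 for *Clu* and 1.08 for *Cd24a*. By DESeq2 the adjusted p of these 3 were 0.00198, 0.00133 and 0.0163. In CPM the kinds did not overlap for 5 of the 10 genes (*Lcn2*, *Clu*, *Prom1*, *Cd24a* and *Cd44*) and for 5.63% of all genes. The gap was narrow for *Cd24a*, with 398.6 CPM the lowest with *Xist* and 398.1 CPM the highest with Y-linked RNA. It was also narrow for *Cd44*, between 306 CPM (highest with *Xist*) and 311 CPM (lowest with Y-linked RNA). In TPM the kinds did overlap for *Lcn2*, *Clu* and *Prom1*. *Cd44* went the other way, at 10.7 to 14.3 TPM with *Xist* and 15.1 to 22.5 TPM with Y-linked RNA, with no overlap on either scale (log2 difference -0.54, edgeR adjusted p = 0.242). For *Sox4* the difference was -0.0094 (standard error 0.13). A difference in the effect of the pulse between the kinds was called for 0 of the 10 genes and 0 of all 16557 (0%; interaction term, edgeR adjusted p of 0.99998 for each of the 10). For *Clu* the interaction was 0.29 on the log2 scale (standard error 0.55). In TPM, which is not corrected for composition, its means differed by 1096 within the cultures with *Xist* and by 257 within the others. Each of these sets 2 cultures against 2, and the first includes GDNF culture 6 at 3062 TPM.

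**Figure D3:**
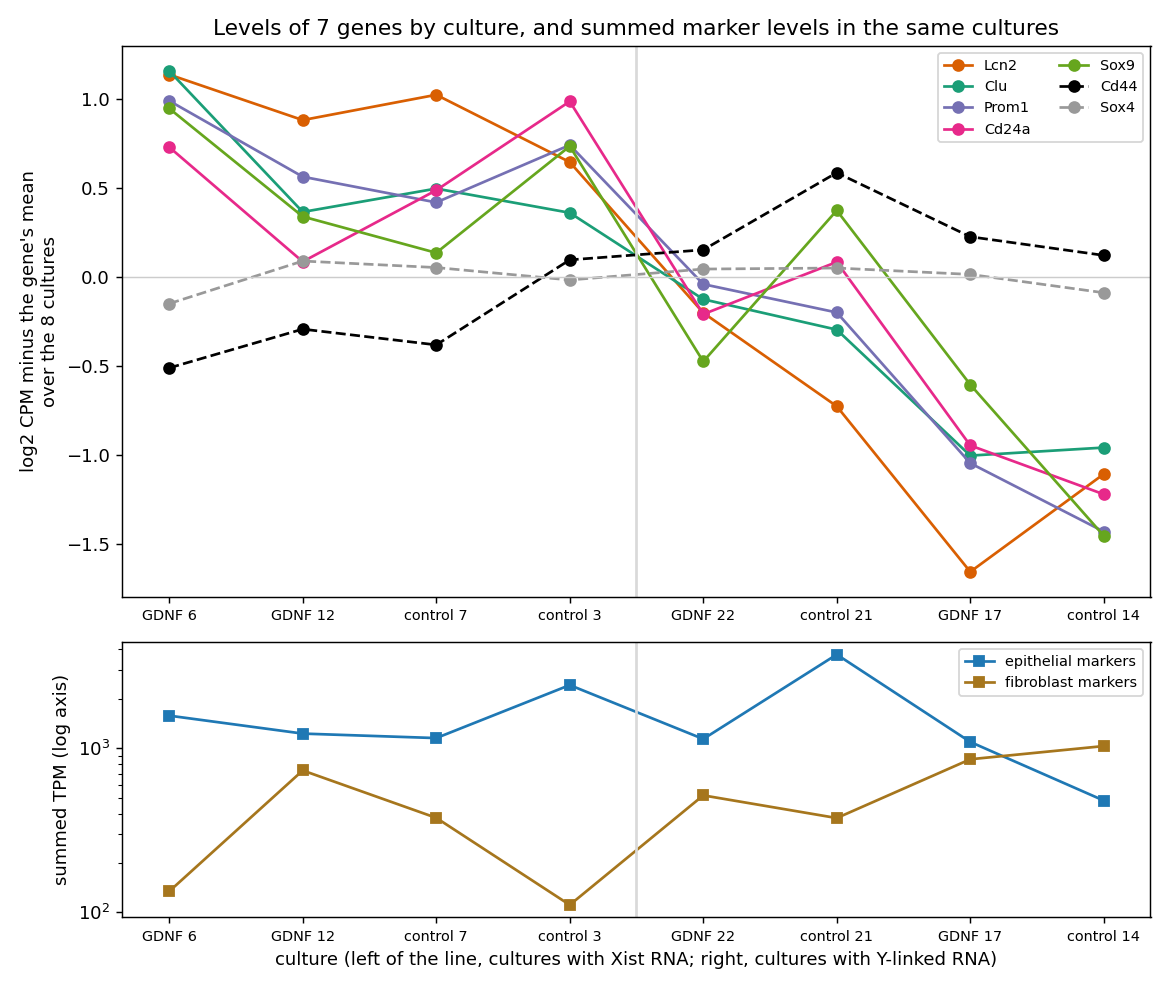
Upper plot, log2 CPM of 7 genes minus each gene's mean over the 8 cultures. Lower plot, summed TPM of the epithelial and fibroblast markers in the same cultures on a log axis. Cultures with *Xist* RNA are left of the line. *Lcn2*, *Clu*, *Prom1*, *Cd24a* and *Sox9* are lowest in GDNF culture 17 and control culture 14, *Cd44* is mostly on the opposite side and *Sox4* stays near 0.

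*Cd44* is spliced into a standard form and into variant forms that include additional exons, and the tables allowed part of this to be read. Of its 6 listed transcripts, the longest (NM_009851, 5653 bases) and the shortest (NM_001039151, 4408 bases) differ by 1245 bases, equal to the summed length of 10 exons that the GENCODE models place in the longest only, although the GENCODE model of the shortest is itself shorter (2848 bases). The count of the longest minus that of the shortest was taken as the reads that touch only those exons. Per kilobase, they amounted to 28.1%, 26.7%, 16.4% and 30.7% of the reads of the shortest transcript in control cultures 3, 7, 14 and 21, and to 28.0%, 28.9%, 22.1% and 35.2% in GDNF cultures 6, 12, 17 and 22. Control culture 14 and GDNF culture 17 were again the lowest. Read as a share of the counts of the longest transcript, the values were 4.44% (95% Wilson interval 3.90% to 5.04%) in control culture 14 and 9.04% (8.24% to 9.92%) in GDNF culture 22, intervals that cover counting error only. The group means, 25.5% ± 6.25 and 28.5% ± 5.36 (SD, n = 4), did not differ beyond the spread between cultures (exact two-sided permutation p = 0.543). *Esrp1* and *Esrp2*, epithelial splicing regulators known to promote the inclusion of *Cd44* variant exons, were also lowest in control culture 14, at 1.83 and 2.91 TPM. In the other cultures *Esrp1* was at 5.82 to 12.6 TPM and *Esrp2* at 7.08 to 18.3 TPM. Among these the order was not that of the *Cd44* values. Both regulators were lowest in control culture 3 (28.1%) and highest in GDNF culture 12 (28.9%). GDNF culture 22, with 35.2%, had *Esrp1* at 9.36 TPM. Control culture 14 was also lowest in *Cdh1* (7.12 TPM), and the part of cell makeup was not tested. This readout was chosen after the values of *Cd44* had been seen.

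**Figure D4:**
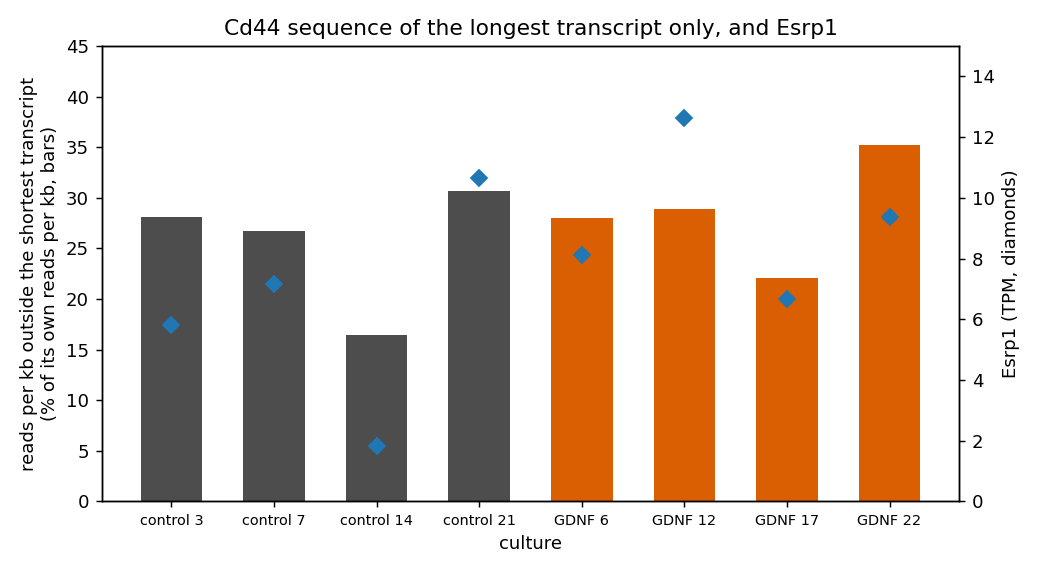
Bars, count of the longest *Cd44* transcript minus that of the shortest, per kilobase of the 1245 bases by which they differ. They are given as percent of the reads per kilobase of the shortest (left axis, from 0), in 4 control (grey) and 4 GDNF cultures (orange). Diamonds, *Esrp1* in TPM (right axis). Control culture 14 is lowest in both, at 16.4% and 1.83 TPM. The highest bar is in GDNF culture 22 (35.2%) and the highest diamond in GDNF culture 12 (12.6 TPM).

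Other genes of the same pathways were counted beside the 10. By edgeR none passed an adjusted p of 0.05, as for all genes. DESeq2 called *Anxa2*, *S100a6* and *Tnfrsf12a* lower, of 16 genes of injury and inflammation to which it gave an adjusted p. It called *Cryab* lower, of 20 such genes of repair and dedifferentiation, and *Lrp8* higher, of 9 such binding partners. Over all 9170 genes with an adjusted p, DESeq2 called 1135 lower and 211 higher. The shares of all genes at an unadjusted p of 0.05, 12.9% lower and 9.25% higher, are the background for the counts that follow. Among 24 further genes of injury and inflammation, 0 were higher and 4 lower by edgeR at an unadjusted p of 0.05, and the median log2 fold change was -0.38 beside 0.03 over all genes. The median of the 8 epithelial markers, whose sums were highest in control cultures 3 and 21, was -0.41. *Krt8* (-1.45), *Krt18* (-1.25), *Krt19* (-0.98), *Epcam* (-0.54) and *Cdh1* (-0.28) were negative. *Cdh16* (0.32), *Pax8* (0.05) and *Pax2* (0.69) were positive, and the part of these markers in the injury and inflammation list was not tested. *S100a6*, a calcium-binding protein, was the clearest of the 4 lower genes, at 5399, 3323, 4003 and 5679 TPM in the control cultures and 2988, 2754, 3680 and 3115 TPM in the GDNF cultures. Its groups did not overlap in CPM, and its log2 fold change was -0.99 (standard error 0.25, edgeR adjusted p = 0.167). The others were *Anxa2*, an annexin (log2 fold change -0.71), *Tnfrsf12a*, the TWEAK receptor Fn14 (-0.64), and the cytokine *Il18* (-0.72).

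Among 23 genes of repair and dedifferentiation, 1 was higher and 5 were lower at an unadjusted p of 0.05, with a median log2 fold change of -0.14. The 4 with the smallest p were *Cryab*, a small heat shock protein (-1.12), *Ankrd1*, a target of YAP signalling (-1.66), *Lhx1*, a transcription factor of early nephrons (0.92), and the growth factor *Areg* (-0.63), with edgeR adjusted p between 0.168 and 0.216. The groups overlapped in CPM for all 4. Keratins *Krt7* and *Krt8* were the other genes past the unadjusted threshold (-1.22 and -1.45), and the latter is also 1 of the epithelial markers. *Cryab*, *Ankrd1*, *Krt7* and *Krt8* were all highest in control cultures 3 and 21. *Ankrd1* was at 132, 26.1, 42.8 and 263 TPM in control cultures 3, 7, 14 and 21 and at 30.3 to 59.8 TPM after GDNF. *Cryab* was at 151, 50.6, 79.4 and 133 TPM against 54.8 to 89.1 TPM. For *Krt7* it was 605, 294, 115 and 1079 TPM against 273 to 317 TPM.

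The list of binding partners held receptors and ligands of the 10 genes and the splicing regulators of *Cd44*. Of 17 listed, 15 could be tested, of which 4 were higher and 1 lower at an unadjusted p of 0.05, with a median of 0.26. *Slc22a17*, a receptor for lipocalin-2, was at 15.3 to 38.9 TPM in control cultures and 50.7 to 68.4 TPM in GDNF cultures (log2 fold change on counts 0.61, edgeR adjusted p = 0.167). *Lrp8*, a lipoprotein receptor that binds clusterin, had a log2 fold change of 0.60, and its CPM did not overlap between groups either. Among the integrin subunits that bind osteopontin, the log2 fold changes on counts were 0.50 for *Itgav*, 0.61 for *Itgb3* and -0.40 for *Itgb1*, with edgeR adjusted p between 0.179 and 0.187. The mean TPM of *Itgb1* was 236 in control and 235 in GDNF cultures. Of 11 other *Sox* genes, 8 could be tested, 7 of them with a positive log2 fold change and a median of 0.40. Over all 16557 genes tested, 8691 were positive and the median was 0.03. *Sox13* was the only one past an unadjusted p of 0.05 (0.36), while *Sox8* (0.87), *Sox11* (0.63) and *Sox6* (0.95) had unadjusted p of 0.0738, 0.0831 and 0.0908. *Sox8* and *Sox6* were barely detected, at 0.188 to 1.12 TPM and 0.0611 to 0.572 TPM over the cultures, and *Sox11* was at 4.28 to 23.2 TPM.

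**Figure D5:**
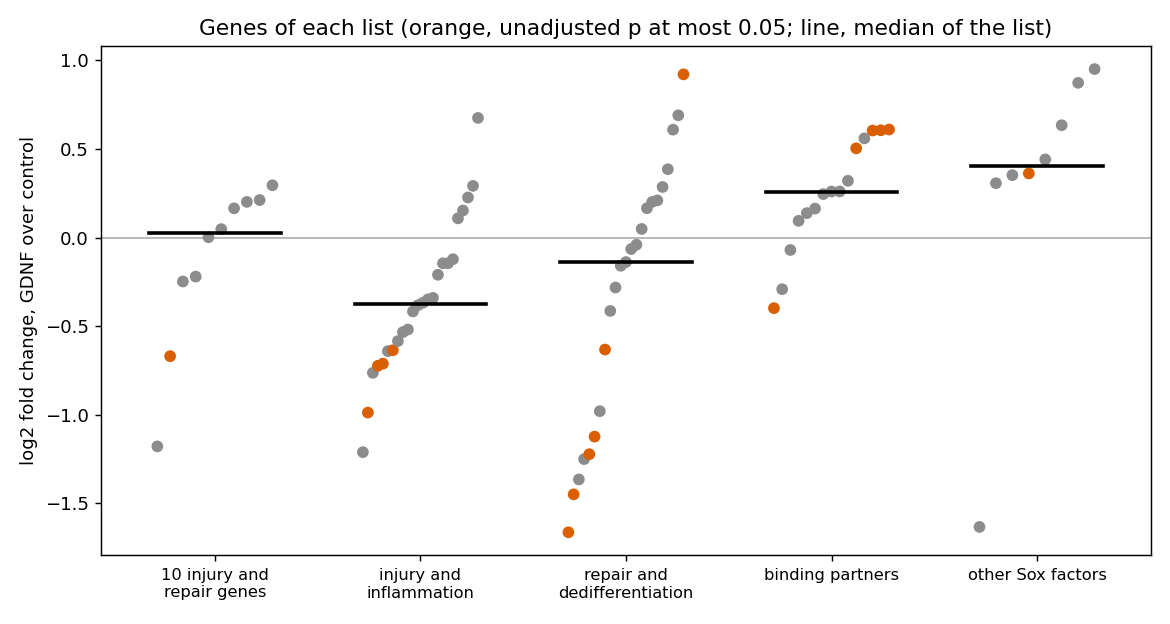
Log2 fold change, GDNF over control (vertical axis), of the tested genes of each list, with orange points for an unadjusted p of at most 0.05 and a line for the median. The injury and inflammation list lies mostly below 0 (19 of 24), and the other *Sox* factors mostly above it (7 of 8). Of all 16557 genes tested, 7866 are below 0 and 8691 above it.

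For each of the 10 genes the gene with the most similar pattern over the 8 cultures was sought among 11451 genes by Pearson's r of log2 CPM, as a description. *Spp1* was nearest to *Dmp1* (r = 0.99), another phosphoprotein of mineralized matrix that lies on chromosome 5 as *Spp1* does, from 104197575 to 104214102 in GRCm38.p6. *Lcn2* was nearest to *Reep6* (0.99), which shapes endoplasmic reticulum membranes. *Prom1* was nearest to *Ntf3*, the neurotrophin-3 gene (0.99), and *Clu* to *Emx2os* (0.98), an RNA antisense to *Emx2* whose reads may not be separable from those of *Emx2* without strand. The remaining pairs were *Havcr1* with *E130309D02Rik* (0.99), *Vcam1* with *Arv1* (0.97), *Sox9* with *Slc44a3* (0.99), *Sox4* with *Smurf1* (0.94), *Cd44* with *Pphln1* (0.98) and *Cd24a* with *Bspry* (0.99). Spearman's rho for these pairs was between 0.79 and 1 over the 8 cultures, and each is the highest r out of so many genes.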

How the data were processed

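The 10 genes and the lists of other genes were chosen with earlier results of these data known. The authors mapped 75 bp paired-end reads of SMART-Seq v4 libraries with STAR to mm10 (GRCm38), and the submitters' processing notes also name featureCounts and DESeq2; versions are not given in the sources used here. The deposited counts are raw whole numbers for each RefSeq transcript, and reads shared by transcripts of a gene appear in each. The deposited FPKM values, used only to obtain transcript lengths, are counts per length and depth, and the deposited TPM values are scaled to 1000000 in each culture. For each symbol the counts were summed, and edgeR 4.0.16 (R 4.3.3) gave the main test (filterByExpr, TMM, glmQLFit, glmQLFTest, Benjamini-Hochberg adjustment over 16557 genes). The standard error is the absolute log2 fold change divided by the square root of F. TPM means were compared by exact permutation over 70 assignments. Named genes were the 10 genes, the 4 genes of each list with the smallest p and all past the adjusted threshold, the most abundant marker of each cell type and the nearest gene of each of the 10. *Itgb3*, *Krt7* and the epithelial markers other than *Krt18* were named after their values were seen. Alternatives were DESeq2 1.42.0, other scalings, no filter, one transcript per gene, culture kind as a term, other TPM scales and leaving out each culture. The fits were tested on simulated counts. Promoter windows are from RefSeq GRCm38.p6, which held 6 of the 10 genes (not *Vcam1*, *Sox9*, *Clu* and *Cd24a*).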

Additional observations from a re-analysis of the deposited data

How the results depend on the processing

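No paired analysis was possible because the GDNF and control cultures share no culture numbers. The count of genes past an adjusted p of 0.05 was 0 in edgeR under all scalings, filters and left-out cultures (range 0 to 0) and 1346 with DESeq2, while 0 of the 10 genes passed in any of them. Signs turned, without a call on either side, for *Sox4* with DESeq2 or its size factors (-0.016 each), with no filter (-0.0026) and without a culture (-0.029 to 0.048), for *Sox9* with culture kind as a term (-0.030) and without a culture (-0.33 to 0.31), for *Cd24a* with library size only (0.0096) and without a culture (-0.58 to 0.089), and without a culture for *Lcn2* (-0.21 to 0.58), *Clu* (-0.16 to 0.56) and *Prom1* (-0.12 to 0.52). In CPM in place of TPM, the mean differences of *Cd44* (-44.8) and *Cd24a* (-72.4) were negative, and that of *Cd24a* ran from -22.7 TPM without control culture 14 (-22.5 TPM without GDNF culture 6) to 120 TPM without GDNF culture 17. The number of genes with an exact p of at most 0.05 in TPM was 1 (*Vcam1*), 0 in CPM and 0 to 1 without a culture. The *Lcn2* difference between the *Xist* and the Y-linked cultures was 1.69 with library size only (edgeR adjusted p = 0.0740), 1.74 with DESeq2 (adjusted p = 3.65e-07), 1.79 without both mixed cultures and 1.53 to 2.11 without 1 culture. The cause of these changes was not tested. What depth limits was not tested.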
